A study of Mus musculus with 2 samples.

Results

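The genes described here are Ubb and Sqstm1, 2 of the 16745 annotated genes with reads in 2 long-read RNA sequencing libraries of mouse adrenal gland. Every transcript model assigned to either gene was taken, which gave 38 of 98236 models in replicate 1 and 46 of 86472 in replicate 2. The genes were selected on read counts of these same libraries, so their levels and the ratio between the libraries are given as a description, with no test. Both libraries came from wild-type C57BL/6J mice, per the labels, which call the tissue male in one field and leave sex as not collected and age as unknown in others. They form 1 group of 2 biological replicates, are separate biosamples, and carry the same donor entry. How much of what separates the libraries is technical was not tested. No treatment, genotype or time was compared.

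Ubiquitin is a small protein that cells attach to other proteins, often as chains that mark them for the proteasome or for autophagy. Ubb encodes it as head-to-tail repeats, Rps27a encodes 1 ubiquitin fused to a ribosomal protein, and deubiquitinases cut the units free. Sqstm1 encodes p62, an autophagy receptor that holds ubiquitin chains with its UBA domain and the autophagosome protein LC3 with a short LC3-binding motif, and that can bind Keap1 and so release the transcription factor Nrf2. The adrenal gland has a cortex that makes steroids and a medulla that makes catecholamines.

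Ubb (ENSMUSG00000019505.7) lies on the plus strand of chromosome 11 of mm10, from 62551171 to 62553213. Its main annotated transcript, Ubb-201, has 2 exons and 1499 bases. Exon 1 holds no coding base, and exon 2 starts 6 bases before the start codon and holds the whole coding sequence of 305 codons. That sequence is 4 repeats of 228 bases, each coding for 1 ubiquitin of 76 residues, followed by 1 further codon. The repeats are shown because unannotated splice sites fell inside them. They were read from the GENCODE transcript, 5′ to 3′, and capitals in repeats 2 to 4 mark bases that differ from repeat 1.
Ubb repeat 1: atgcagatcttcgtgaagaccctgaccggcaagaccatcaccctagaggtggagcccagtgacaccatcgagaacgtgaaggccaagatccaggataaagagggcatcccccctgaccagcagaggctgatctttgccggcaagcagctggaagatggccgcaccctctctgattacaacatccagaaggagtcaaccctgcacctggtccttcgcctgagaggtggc
Ubb repeat 2: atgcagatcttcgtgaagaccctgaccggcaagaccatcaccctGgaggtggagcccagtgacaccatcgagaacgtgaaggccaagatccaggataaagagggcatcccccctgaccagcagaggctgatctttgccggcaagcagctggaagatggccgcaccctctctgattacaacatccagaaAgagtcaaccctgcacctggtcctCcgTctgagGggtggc
Ubb repeat 3: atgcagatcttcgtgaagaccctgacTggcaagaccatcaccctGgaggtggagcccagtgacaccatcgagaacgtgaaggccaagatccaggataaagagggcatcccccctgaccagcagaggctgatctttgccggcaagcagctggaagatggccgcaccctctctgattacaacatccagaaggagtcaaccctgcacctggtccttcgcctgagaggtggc
Ubb repeat 4: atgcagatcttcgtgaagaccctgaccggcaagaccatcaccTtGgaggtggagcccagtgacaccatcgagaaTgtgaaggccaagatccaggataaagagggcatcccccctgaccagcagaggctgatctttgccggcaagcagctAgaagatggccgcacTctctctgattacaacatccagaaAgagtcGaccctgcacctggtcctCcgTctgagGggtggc
Pairs of repeats differed at 2 to 10 bases, an identity of 95.6% to 99.1%, and at 0 residues. Of the 11 positions that varied among the 4 repeats, 10 were the last position of a codon.

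Sqstm1 (ENSMUSG00000015837.15) lies on the minus strand of chromosome 11, from 50199366 to 50210827. Its most read transcript, Sqstm1-202, has 8 exons and 2037 bases and codes for 442 codons. Sqstm1-201 has 8 exons and 2673 bases, codes for 404 codons and differs in the splice donor of exon 7. Its ends differ too, at 50210791 and 50199366 against 50210827 and 50200152 in Sqstm1-202, so its last exon runs further 3′. Exon 7 is 196 bases long in Sqstm1-202 (50202399 to 50202594) and 82 bases long in Sqstm1-201. The 114 bases that the short form leaves out are shown because both libraries split their reads over this choice. They lie at 50202399 to 50202512, and the capitals mark the first 2 intron bases of the short form.
Sqstm1 exon 7, bases left out of the short form: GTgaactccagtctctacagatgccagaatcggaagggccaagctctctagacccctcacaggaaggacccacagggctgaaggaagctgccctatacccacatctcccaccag
One more donor lay 4 bases beyond the long one. Each donor is given with 9 exon and 6 intron bases, and capitals mark the first 2 bases of the intron.
Short donor: catctacagGTgaac
Long donor: tcccaccagGCatgt
Donor 4 bases beyond: accaggcatGTggtc
The long donor starts its intron with GC, a rarer class of splice donor, and the other 2 start theirs with GT.

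Replicate 1 held 848782 reads and replicate 2 held 545229, so 1 read was worth 1.18 and 1.83 CPM (reads per 1000000 reads of the library). Each long read was counted as 1 whatever its length, so CPM was not divided by transcript length. Replicate 2 held longer transcripts: the median annotated length per read assigned to a known model was 1648 bases in replicate 1 and 2740 bases in replicate 2. All 5 cortex markers and all 4 medulla markers had reads in both libraries. All 4 kidney markers had none, which limits each to at most 3.53 and 5.50 CPM (3 reads). The summed CPM of the medulla markers was 9399 and 22963, and of the cortex markers 55635 and 81170. Single markers went both ways: Th (2831 and 1489 CPM) and Hsd3b1 (11679 and 4561) were lower in replicate 2, and the other 3 medulla and 4 cortex markers were higher. The part of these markers in the results below was not tested. In bulk tissue, fewer cells of a type and less RNA per cell cannot be told apart. Intervals below are exact 95% intervals and cover counting error only.

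Ubb had 2603 reads in replicate 1 and 228 in replicate 2. These are 3067 CPM (exact Poisson interval 2950 to 3187) and 418 CPM (366 to 476), with a mean of 1742 ± 1873 CPM (SD, n = 2). The gene ranked 20 among all annotated genes in replicate 1 and 313 in replicate 2. The level was 7.33-fold lower in replicate 2, a log2 ratio of -2.87 (-3.08 to -2.68).

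Sqstm1 went the other way, with 499 reads in replicate 1 and 1391 in replicate 2. These are 588 CPM (537 to 642) and 2551 CPM (2419 to 2689), with a mean of 1570 ± 1388 CPM (SD, n = 2). It ranked 228 and 26. The level was 4.34-fold higher in replicate 2, a log2 ratio of 2.12 (1.97 to 2.27). Ubb was 5.22-fold above Sqstm1 in replicate 1, and Sqstm1 was 6.10-fold above Ubb in replicate 2. For Ubb the SD over the 2 libraries exceeded the mean, and for Sqstm1 it was a little below it.

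**Figure D1:**
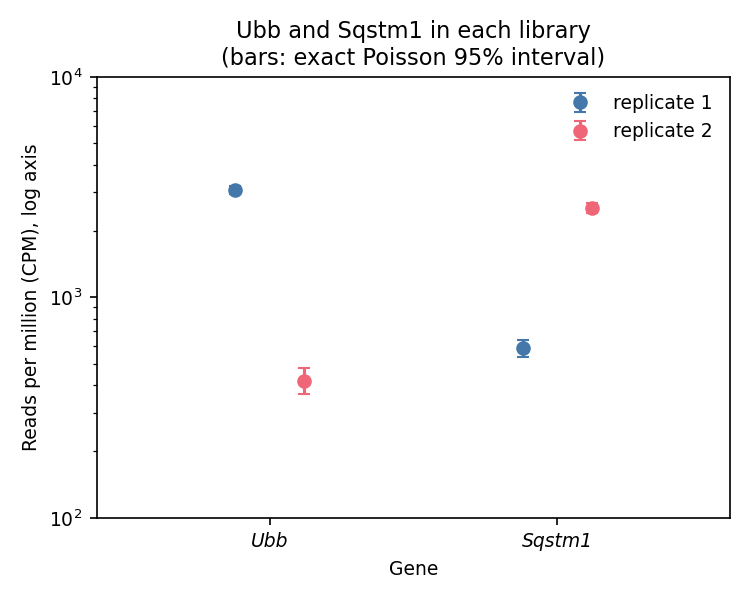
Level of Ubb and Sqstm1 in CPM on a log axis; each point is 1 library and bars are exact Poisson 95% intervals. Ubb stands at 3067 CPM in replicate 1 and 418 in replicate 2, and Sqstm1 at 588 and 2551.

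Rps27a, which codes for ubiquitin fused to a protein of the small ribosomal subunit, was lower in replicate 2, like Ubb. It had 610 and 55 reads, or 719 and 101 CPM, and was 7.12-fold lower there. It passed the test described with the gene lists below, a call that was lost with the length trend removed.

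The ratio between the libraries moved with transcript length over all genes, and the annotated transcripts of Ubb and Rps27a are short. The lengths are 1499 bases for Ubb, 791 for Rps27a and 2037 for Sqstm1. The value for Sqstm1 is that of Sqstm1-202, and Sqstm1-201 has 2673 bases. The 678 tested genes within 10% of the length of Ubb had a median log2 ratio of -1.62 (quartiles -2.53 and -0.60), so Ubb at -2.87 lay below the lower quartile. The 1025 genes within 10% of the length of Sqstm1 had a median of 0.33 (quartiles -0.73 and 1.10), so Sqstm1 at 2.12 lay above the upper quartile. A running median over 501 genes ordered by length stood at -1.72 for Ubb and 0.39 for Sqstm1. With that trend subtracted, the log2 ratio was -1.15 for Ubb and 1.73 for Sqstm1. The direction of each gene was the same, and the size for Ubb on the log2 scale was smaller.

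**Figure D2:**
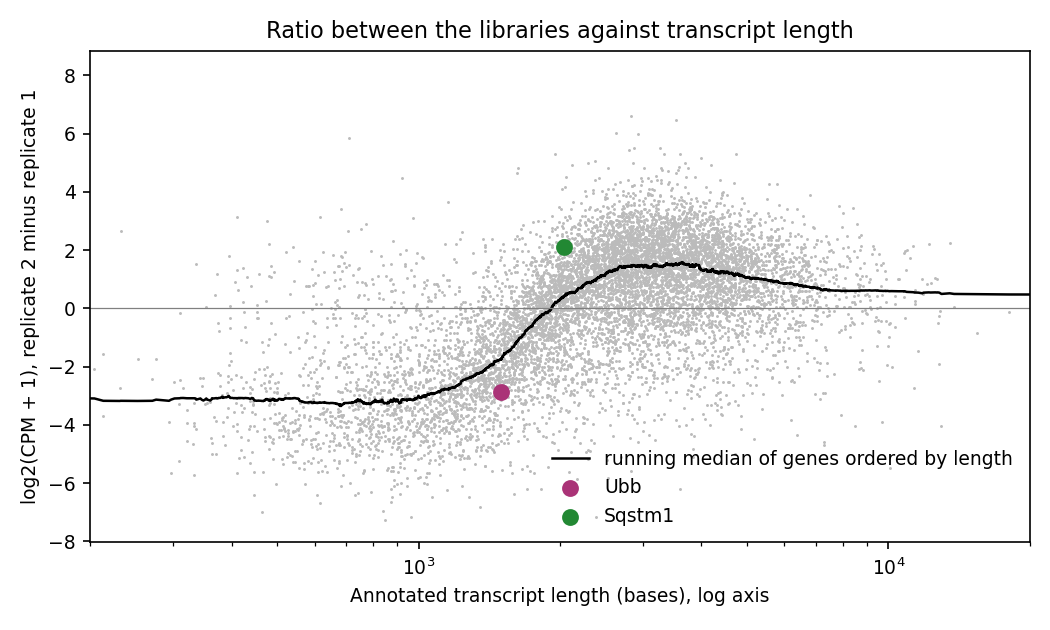
Log2 ratio of replicate 2 to replicate 1 for each tested gene (grey points) against annotated transcript length on a log axis, with the running median over 501 genes as a line. Ubb (-2.87 at 1499 bases) lies below the line and Sqstm1 (2.12 at 2037 bases) above it.

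The genes with levels most like those of each member, by distance of log2(CPM + 1) over the 2 libraries, were not of a like length in every case. Nearest to Ubb were Hao2 (3130 and 468 CPM), Malat1 (3539 and 457), Akr1cl (3148 and 517), Apoe (2671 and 301) and Srd5a2 (2418 and 554). Their lengths ran from 1408 bases for Apoe to 6983 for Malat1. Nearest to Sqstm1 were Prss35 (583 and 2393 CPM), Actb (489 and 2221), Sdha (478 and 2151), Hspa9 (444 and 2434) and Gsn (800 and 2570). Their lengths ran from 1920 bases for Actb to 3444 for Prss35.

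Nearly all Ubb reads had the annotated structure. Ubb-201 held 2533 of 2603 reads in replicate 1, or 97.3% (96.6% to 97.9%), and 222 of 228 in replicate 2, or 97.4% (94.4% to 99.0%). These shares differed by less than their intervals although the level differed 7.33-fold. The other annotated transcript, Ubb-202, which starts in the intron of Ubb-201, had 3 reads in replicate 1 and 0 of 228 in replicate 2, which allows a share of up to 1.32% (3 reads). The only intron of Ubb-201 was spliced at both annotated sites in 2533 of 2544 reads over it in replicate 1 and in 222 of 223 in replicate 2. No read in either library held this intron inside an exon, which by the same limit of 3 reads allows up to 0.118% in replicate 1 and 1.35% in replicate 2. A single-exon model that covers exon 2 alone, classed as an incomplete splice match (ISM, a model that lacks part of an annotated transcript), held 59 reads (2.27%) in replicate 1 and 5 reads (2.19%) in replicate 2.

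A few Ubb reads joined exon 1 to a point inside the coding repeats. In replicate 1, 4 models with 8 reads in all (0.307%, 0.133% to 0.605%) had an unannotated intron, and in replicate 2 there was 1 such model with 1 read (0.439%, 0.0111% to 2.42%). The one model that both libraries held joined the annotated donor to an acceptor 229 bases beyond the annotated one, with 5 reads in replicate 1 and 1 read in replicate 2. Its class was NNC (at least 1 unannotated splice site), and it left 3 whole repeats. A model with 1 read in replicate 1 used an acceptor 685 bases beyond, which left 1 whole repeat. The other 2 models, also with 1 read each in replicate 1, used a donor 6 bases further and acceptors 455 and 468 bases beyond the annotated one. The acceptors are shown with 8 bases before and 12 after, and capitals mark the last 2 intron bases.
Acceptor 229 bases beyond: cctgagAGgtggcatgcaga
Acceptor 455 bases beyond: cgtctgAGgggtggcatgca
Acceptor 468 bases beyond: gcatgcAGatcttcgtgaag
Acceptor 685 bases beyond: cctgagAGgtggcatgcaga
All 4 introns end in AG. The windows at 229 and 685 bases are the same letters, at the ends of repeats 1 and 3, and each acceptor leaves 5 bases before the next start codon. Of the 4 acceptors, 3 lay within 3 bases of a multiple of the 228-base repeat from the annotated acceptor, and none lay at an exact multiple. Over all unannotated introns of replicate 1 that kept 1 annotated splice site and moved the other by more than 114 bases, 174 of 5584 (3.12%) lay as near to a multiple of 228 bases. In replicate 2 this was 196 of 6654 (2.95%). The Ubb introns that kept an annotated site were 2 in replicate 1 and 1 in replicate 2, and all of them lay within 3 bases of a multiple. None of the 4 Ubb introns had a length within 3 bases of a multiple of the repeat. What produced these reads was not tested.

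**Figure D3:**
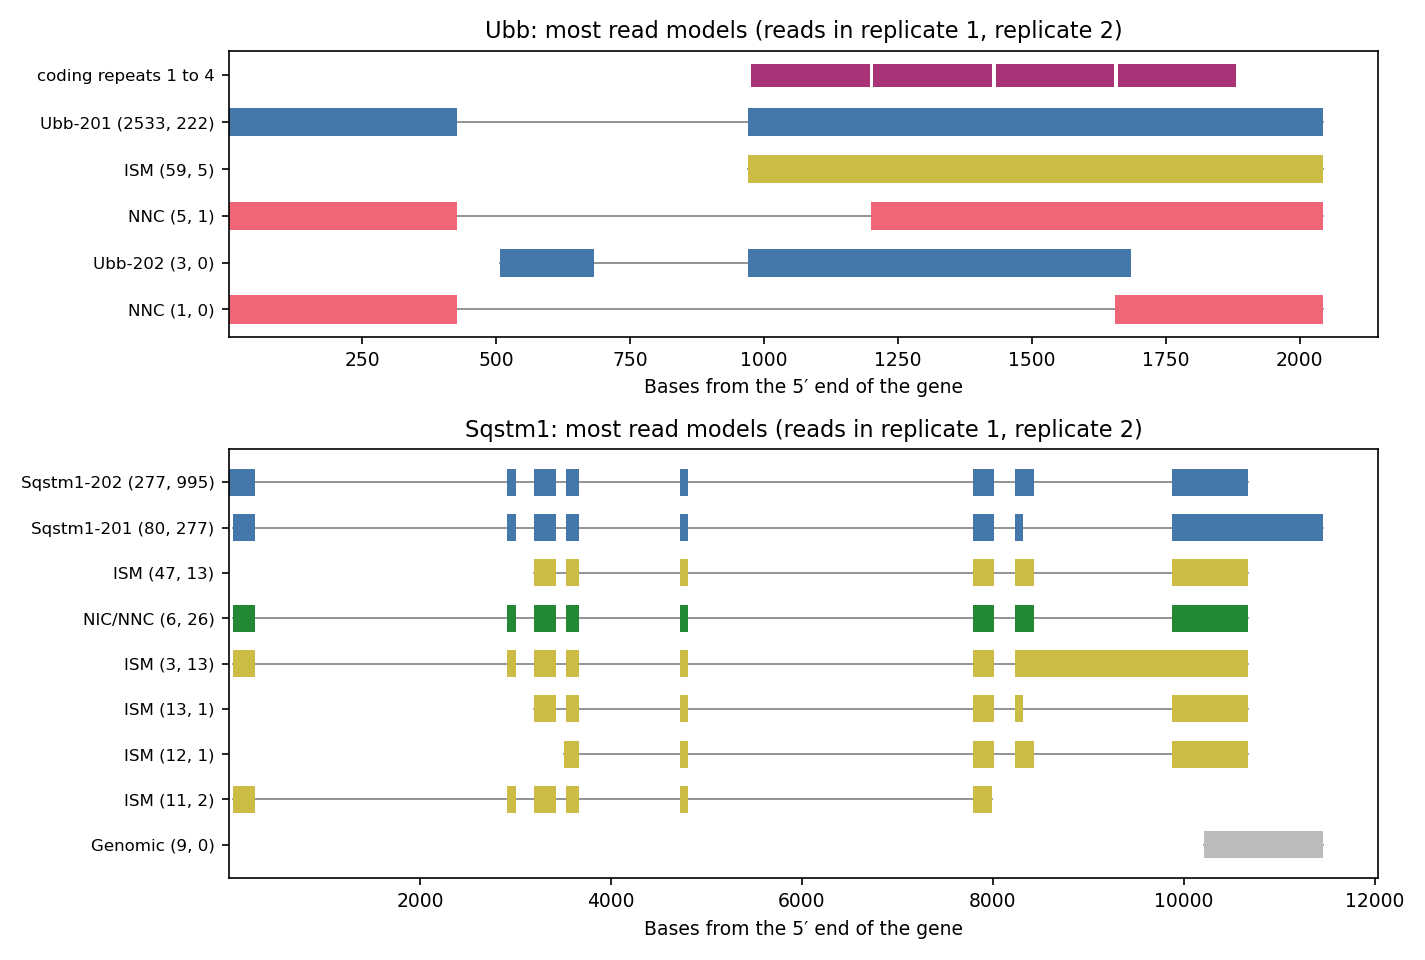
Most read models of Ubb and Sqstm1, drawn to scale in bases from the 5′ end of the gene, with exons as boxes and introns as lines; labels give the reads in replicate 1 and replicate 2, and colours the transcript class. The NNC model of Ubb with 5 and 1 reads starts its second exon at the end of repeat 1, and Sqstm1-201 has the short exon 7; in Sqstm1 the model labelled NIC/NNC was NNC in replicate 1 and NIC in replicate 2.

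Sqstm1 was split over more structures than Ubb, with 31 models in replicate 1 and 43 in replicate 2 against 7 and 3 for Ubb. Sqstm1-202 has 8 exons and Ubb-201 has 2. Single-read models were 14 and 28 of those of Sqstm1, and 3 and 1 of those of Ubb. Of the Sqstm1 reads, 71.7% (67.6% to 75.7%) were in known models in replicate 1 and 91.5% (89.9% to 92.9%) in replicate 2. Over all reads of each library, known models held 72.5% in both, and ISM models held 11.9% in replicate 1 and 9.79% in replicate 2. ISM models of Sqstm1 held 115 reads (23.0%, 19.4% to 27.0%) in replicate 1 and 43 reads (3.09%, 2.25% to 4.14%) in replicate 2. Of these, suffix models, which lack 5′ exons, held 94 reads in replicate 1 and 21 in replicate 2. The most read began with exon 3 and held 47 reads in replicate 1 and 13 in replicate 2. Exon 1 of Sqstm1-202 was covered by 77.0% (73.0% to 80.6%) of reads in replicate 1 and 97.8% (96.9% to 98.5%) in replicate 2, while exon 8, at the 3′ end, was covered by 94.8% and 98.7%. With known models alone, the log2 ratio of Sqstm1 was 2.47.

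**Figure D4:**
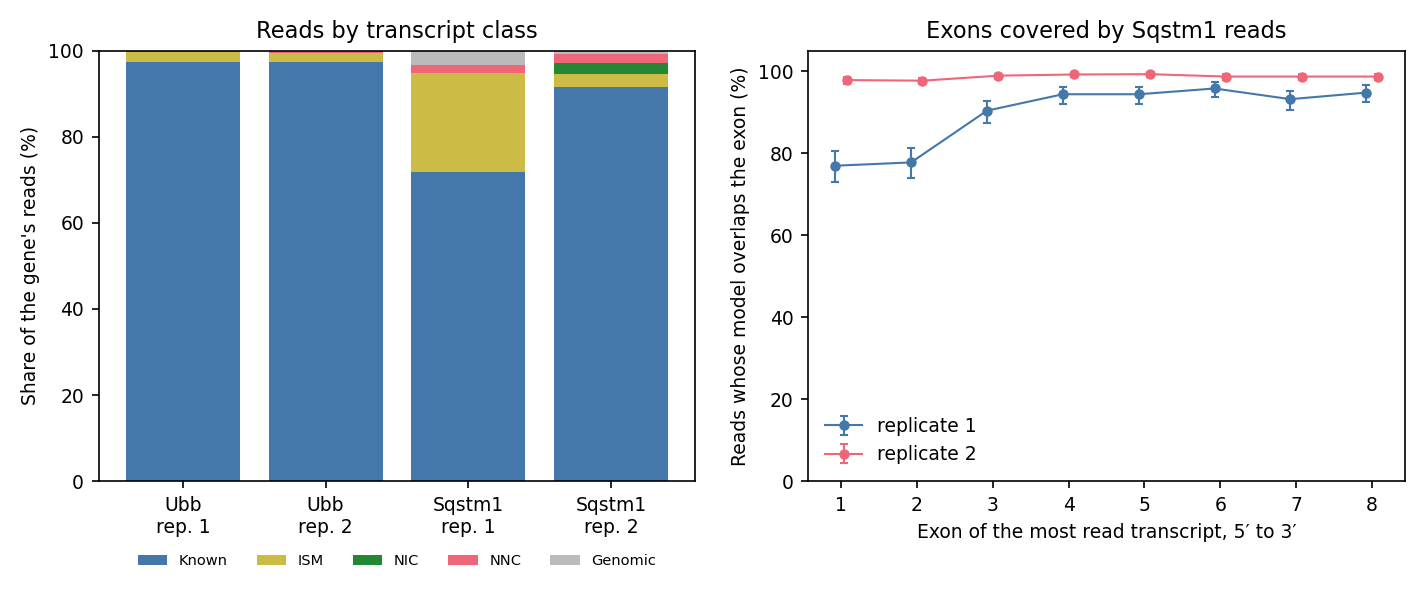
Left, share of the reads of Ubb and Sqstm1 in each transcript class in each library; right, share of Sqstm1 reads whose model overlaps each exon of Sqstm1-202, with exact 95% intervals. Ubb is 97.4% known in both libraries, Sqstm1 is 71.7% and 91.5% known, and coverage of exon 1 is 77.0% in replicate 1 and 97.8% in replicate 2.

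The choice of donor in exon 7 of Sqstm1 was alike in both libraries. Of 461 reads spliced out of exon 7 in replicate 1, 351 used the long donor, and of 1356 in replicate 2, 1037 did. These are 76.1% (72.0% to 79.96%) and 76.5% (74.1% to 78.7%). The short donor was used by 101 reads, or 21.9% (18.2% to 26.0%), and by 281 reads, or 20.7% (18.6% to 23.0%), a mean of 21.3% ± 0.839 (SD, n = 2). The difference of replicate 2 from replicate 1 was -1.19 percentage points, with a Newcombe 95% interval of -5.69 to 2.998. The interval includes 0 and does not show that the shares are equal. The donor 4 bases beyond the long one was used by 9 reads, or 1.95% (0.896% to 3.67%), and by 37 reads, or 2.73% (1.93% to 3.74%).

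**Figure D5:**
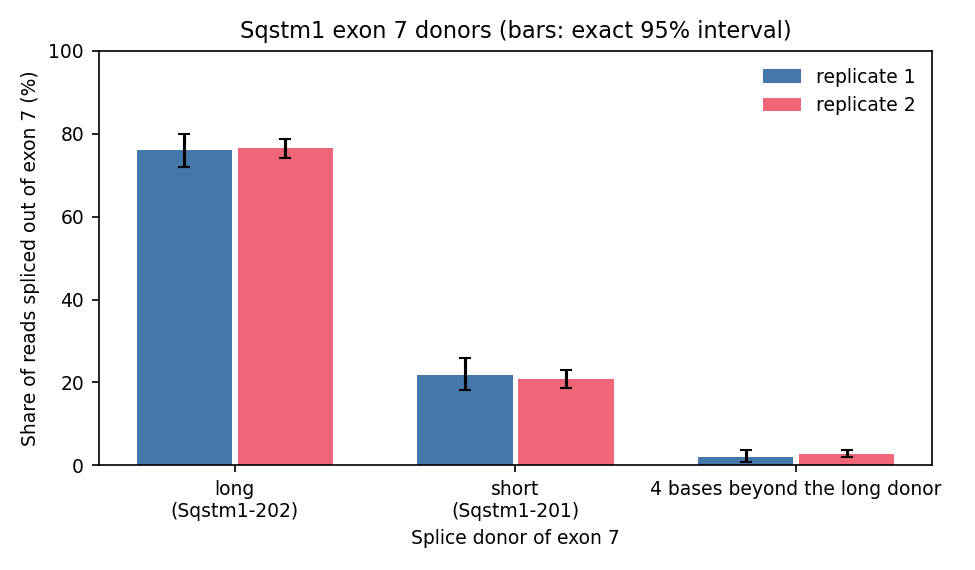
Share of reads spliced out of exon 7 of Sqstm1 that used each of 3 donors, in each library, with exact Clopper-Pearson 95% intervals as bars. The long donor holds 76.1% and 76.5%, the short one 21.9% and 20.7%, and the one 4 bases further 1.95% and 2.73%.

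The short form keeps the reading frame and lacks 38 codons. The left-out bases are 1058 to 1171 of the coding sequence, counted from 1 at the start codon, and fall in codons 353 to 391. The LC3-binding motif, found by a script at codons 337 to 343, lies before them and is whole in both forms. The Keap1-binding motif, at codons 349 to 354, keeps its first 4 codons in the short form. A mouse p62 splice form that lacks Keap1 binding is known. Read from the annotated start codon, an open reading frame of 442 codons was held by 277 reads (55.5%) in replicate 1 and 997 reads (71.7%) in replicate 2. A frame of 404 codons was held by 80 reads (16.0%) and 277 reads (19.9%). The start codon was not covered by the models of 116 reads (23.2%) in replicate 1 and 30 reads (2.16%) in replicate 2. A frame of 393 codons was held by 6 and 26 reads. That model joins the other annotated introns to the donor 4 bases beyond. Its class was NNC in replicate 1 and NIC (by definition, known sites in an unannotated combination) in replicate 2. That donor counts as unannotated in both libraries, so the NIC label does not match the definition. TALON classes were set separately in each library.

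The other Sqstm1 introns were spliced at their annotated sites in nearly all reads. Over introns 1 to 6 the exact share ran from 98.7% at intron 6 to 100% at intron 3 in replicate 1, and from 99.1% at intron 2 to 99.9% at intron 3 in replicate 2. Intron 7, the last one, lay inside an exon in 3 of 464 reads over it (0.647%, 0.134% to 1.88%) in replicate 1 and in 16 of 1372 (1.17%, 0.668% to 1.89%) in replicate 2. Unannotated splice sites were used by 12 reads (2.40%, 1.25% to 4.16%) in replicate 1 and 62 reads (4.46%, 3.43% to 5.68%) in replicate 2. Of these sites, 5 of 7 in replicate 1 and 11 of 20 in replicate 2 lay within 10 bases of an annotated site. After the exon 7 donor, the most read was an acceptor 2 bases inside exon 3, with 1 and 11 reads, and then an acceptor 2 bases inside exon 8, with 0 and 8 reads. Over all genes, 39.2% and 41.6% of the unannotated introns that shared 1 annotated site moved the other by at most 10 bases. That share counts introns, and the Sqstm1 counts are of sites in any intron, so the 2 are not a like measure.

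Of the 12 unannotated Sqstm1 models that both libraries held by intron chain, 2 had another class in the other library. Those 2 were NNC in replicate 1 and NIC in replicate 2. All the others were ISM, which lack part of an annotated transcript. These 12 held 109 of the 141 reads in unannotated models in replicate 1, and 66 of 118 in replicate 2. Single-read models held 14 reads (2.81%) and 28 reads (2.01%). Models of genes on the opposite strand overlapped the locus with 12 reads in replicate 1 and 9 in replicate 2, from Mrnip at the 3′ end, Mgat4b at the 5′ end and, in replicate 2, 2 reads of unannotated genes. No other model overlapped Ubb. The processed pseudogenes of Ubb took few reads: Gm1821 had 6 and 2, and Ubb-ps had none.

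Genes that work with ubiquitin and p62 were compared between the libraries with Fisher's exact test (two-sided) on each gene's reads and the rest of the library, and p-values were adjusted by Benjamini-Hochberg over the 9879 genes with at least 10 reads. The test compares 2 libraries and not 2 conditions. It called 64.4% of all tested genes, 36.6% as higher in replicate 2 and 27.9% as lower, so a call alone sets no gene apart. Over the lists without Ubb and Sqstm1, 28 of 63 tested genes were called higher and 19 lower, with a median log2 ratio of 0.54, beside 0.38 over all genes. TMM scaling gave 21 higher and 21 lower. Removing the length trend gave 16 higher and 25 lower of 59 list genes, beside 1851 higher and 1973 lower of 9166 over all genes. These all-gene counts are also the background for the counts of single lists below with the length trend removed. Over all genes, 56.75% of calls were higher, against 45.0% under TMM scaling and 48.4% with the length trend removed. Of the 47 called list genes, 28 kept their call in every setting in which they were tested.

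Among 8 tested genes of ubiquitin activation and conjugation, 1 was higher, 5 were lower and 2 did not pass, with a median log2 ratio of -0.93. Uba1, the main ubiquitin-activating enzyme, had 88 and 634 reads and was 11.2-fold higher in replicate 2. Ube2n, a conjugating enzyme that builds K63-linked chains, had 116 and 14 reads and was 5.32-fold lower. Of 9 deubiquitinases, 3 were higher, 4 lower and 2 did not pass, with a median of -0.54. Removing the length trend gave 1 higher and 4 lower, and Usp14 (115 and 120 reads) was called lower there and higher on all reads. Usp5, which takes apart free ubiquitin chains, had 20 and 209 reads and was 16.3-fold higher. Otub1 had 150 and 25 reads and was 3.85-fold lower. Uba1, Ube2n, Usp5 and Otub1 kept their direction under every scaling and with the length trend removed.

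Among 10 other autophagy receptors, 6 were higher, 2 were lower and 2 did not pass, with a median log2 ratio of 0.85. Removing the length trend gave 2 higher and 4 lower. Optn had 157 and 252 reads (185 and 462 CPM), and its call was lost with the trend removed. Tax1bp1 had 238 and 199 reads (280 and 365 CPM), and was called higher on all reads but lower with the trend removed. Ncoa4, the receptor for ferritin, had 61 and 166 reads and was 4.24-fold higher, and Calcoco1 had 18 and 63 reads and was 5.45-fold higher. Both kept their call. Bnip3l, a receptor for mitochondria, had 184 and 51 reads and was 2.32-fold lower.

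The Atg8 family, to which LC3 belongs and which p62 binds, had 4 of 5 genes lower and 1 higher, with a median log2 ratio of -3.24. Removing the length trend gave 1 higher and 3 lower. The lengths are 1112 bases for Map1lc3a, 1351 for Gabarap, 1677 for Gabarapl2, 1820 for Gabarapl1 and 2532 for Map1lc3b. Among all tested genes under 1500 bases, 1527 of 2051 were called lower, with a median log2 ratio of -2.69. Map1lc3b had 926 and 230 reads and was 2.59-fold lower, Gabarap had 344 and 6 and was 36.8-fold lower, and Gabarapl2 had 360 and 24 and was 9.64-fold lower. Map1lc3a had 337 and 21 reads, and its call was lost with the trend removed. Gabarapl1 had 162 and 150 reads (191 and 275 CPM), and its call was lost under TMM scaling and DESeq2 size factors. Of 14 autophagy machinery genes, 10 were higher, 1 was lower and 3 did not pass, with a median of 1.84, and removing the length trend gave 5 higher and 4 lower. Becn1, part of the lipid kinase complex that starts autophagosomes, had 135 and 144 reads, and was called higher on all reads but lower once the length trend was taken off. Wipi2 had 27 and 128 reads and was 7.38-fold higher, a call that held in every alternative.

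Of 9 genes of the Keap1-Nrf2 pathway, 4 were higher, 2 lower and 3 did not pass, with a median log2 ratio of 0.58. Removing the length trend gave 3 higher and 4 lower. Nfe2l2, which codes for Nrf2, had 72 and 182 reads and was 3.94-fold higher. Keap1 had 71 and 126 reads and was 2.76-fold higher, a call that was lost with the length trend removed. Srxn1, an Nrf2 target, had 271 and 131 reads and was 1.33-fold lower, while Txnrd1, another target, had 54 and 231 reads and was 6.66-fold higher. Of 7 signalling partners of p62, 3 were higher and 4 did not pass, with a median log2 ratio of 1.01. The share called was 42.9%, beside 64.4% over all genes. The 3 include Map3k3, with 3 and 9 reads, whose call was lost under TMM scaling and DESeq2 size factors. Tbk1, a kinase that phosphorylates p62, had 9 and 49 reads and was 8.48-fold higher.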

How the data were processed

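Long-read RNA sequencing reads of 2 adrenal gland libraries were used as the authors deposited them, as raw counts of reads per transcript model on mm10 with GENCODE M21, per the text deposited with each library. Models and classes are credited to TALON, per the file headers. The platform and the aligner: not given in the sources used here. Each table lists models with at least 1 read. Gene sums were divided by all reads of the library (CPM), with 1 CPM added before log2. Length trends used a running median of 501 genes. Alternatives used TMM factors (edgeR 4.0.16) and DESeq2 1.42.0 size factors, with a binomial test. Intervals are at 95%, and a count of 0 was read against a floor of 3 reads. Scripts ran in Python 3.11.15 and scipy 1.17.1, and the test and the intron code were tested on simulated data. Sequences were read from GENCODE M21 transcripts, which share build and annotation with the files, and repeats and motifs were found by translating them. The members and the gene lists were chosen with earlier results of these data known. Genes were named by rule: the members, the 5 genes nearest to each, the gene with the highest mean CPM of each list, lists of 5 or fewer genes in full, and other list genes as examples. Some genes of the ubiquitin-coding list are not reported here. The distance of Ubb acceptors from the annotated one was measured after the data were seen.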

Additional observations from a re-analysis of the deposited data

How the results depend on the processing

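Both members kept their direction under every alternative tried. The log2 ratio of Ubb was -3.31 under TMM scaling, -3.32 under DESeq2 size factors and -1.15 with the length trend removed. That of Sqstm1 was 1.68, 1.67 and 1.73 under the same settings and 2.47 with known models only. With 2 libraries, leaving out 1 only returns the value of the other and cannot check the mean. These values were 418 or 3067 CPM for Ubb and 588 or 2551 CPM for Sqstm1. Over all genes, calls higher in replicate 2 were 3611 of 9879 tested genes. They were 2098 of 4772 with at least 50 reads and 1851 of 9166 with the length trend removed. Over the lists, calls higher in replicate 2 were 28 of 63 tested genes, and 16 of 59 with the length trend removed. With known, NIC and NNC models as the whole, Ubb-201 held 99.6% in both libraries (99.61% and 99.55%) and Sqstm1-202 held 75.3% and 74.4%. Without single-read models, known models held 93.3% of Sqstm1 reads in replicate 2. With known models only, an alternative added after the data were seen, the short exon 7 held 22.4% and 21.8%. With sites within 10 bases taken as the same, intron 7 of Sqstm1 was spliced in 77.6% and 78.1% of reads. No paired analysis was possible because there is 1 group. With 2 libraries, depth and transcript length differ together and cannot be told apart from a difference between the biosamples.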
